A study of Mus musculus with 12 samples.

Results

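The comparison described here sets a maturation step made in culture against one made in the embryo, gene by gene, in mouse primordial germ cells (PGCs, the precursors of eggs and sperm) and in PGC-like cells (PGCLCs) induced from embryonic stem cells. The culture step is the log2 level in female d3ag6 PGCLCs minus that in female d6 PGCLCs. The embryo step is the level in female PGCs of embryonic day 12.5 (E12.5) minus that in PGCs of E9.5. The quantity reported is the culture step minus the embryo step, called the difference of steps below, over all probe sets of the array. The arrays were chosen by their group label, which gave 8 of the 12 arrays of the series, 2 in each of the 4 groups. Of 45101 probe sets, 24822 passed a filter on dim signal and were tested, and they represented 13178 of 18194 named genes.

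In the mouse embryo, PGCs migrate through the hindgut to the genital ridges, and on arrival they erase DNA methylation, switch on a set of gonadal germ cell genes such as Dazl and Ddx4, and in females enter meiosis in response to retinoic acid, with Stra8 as an early marker. Migrating PGCs already carry the specification factor Prdm1 (also called Blimp1), Dppa3 (also called stella) and the pluripotency gene Pou5f1. PGCLCs in culture resemble migrating PGCs, and contact with gonadal somatic cells is known to let them go on to the gonadal stage.

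The d6 PGCLCs were female C57BL/6 cells with the transgenes Blimp1-mVenus and stella-ECFP (BVSC), taken on day 6 of culture. The d3ag6 cells were female BVSC PGCLCs of day 3 that spent 6 more days in aggregates with female gonadal somatic cells of E12.5, so they descend from d3 cells and not from the d6 cells they are set against. The PGCs of E9.5 and E12.5 carried stella-EGFP and came from a stella-EGFP C57BL/6 male mated with a wild-type BDF1 female, so strain background, reporter and origin differ between the culture and embryo arms in the same way at both ends. The E12.5 PGCs were female, whereas the sex of the E9.5 PGCs is given as unknown. All cells were sorted on their reporters, and amplification by PCR, with 12 initial cycles, started from the cDNA of 500 cells (5 ng of RNA). The titles call the 2 arrays of a group biological replicates without naming cultures, animals or litters, so the p-values measure the spread between these samples.

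The germ cell label was checked against its markers. Dppa3 lay between 12.97 and 13.18 log2 on the 8 arrays, Pou5f1 between 12.34 and 12.96 and Dnd1, which protects germ cell RNAs, between 11.13 and 11.56. The 4 groups overlapped or lay close together for these 3 genes, so the levels of these 3 did not set the groups apart. Other germ cell markers did: Dazl was at 5.92 and 3.81 in E9.5 and at 9.26 or above on the other arrays. The level of Dppa3 was not independent of the sort on its reporter. Dppa3 drives a reporter in both arms and Prdm1 in the PGCLCs alone. The differences of steps of Prdm1 and Dppa3 were 0.47 ± 0.39 and 0.13 ± 0.20 log2 (± standard error from the fit), with limma adjusted p of 0.578 and 0.794. The median within-group SD was 0.240 log2 in E9.5 and 0.120 to 0.161 in the other 3 groups. The array code in the sample description was EA1013 for d6, d3ag6 and E12.5, and EA0831 and EA0842 for the 2 E9.5 arrays. Code and the E9.5 group therefore cannot be told apart within these 8 arrays, and male d6 PGCLCs, which carry the codes of E9.5, were used in place of female d6 cells as a second start below. In bulk samples, fewer cells of a type and less RNA per cell cannot be told apart.

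The difference of steps was called for a small share of genes, which is not the share of genes whose steps differ. On simulated data the fit called 2% of differences of 1 log2 and 47% of those of 2 log2. With 13178 genes tested, 599 (4.55%) were called in the difference of steps at a limma adjusted p under 0.05, and 2689 genes had an unadjusted p under 0.05. The culture step exceeded the embryo step for 352 genes (2.67% of those tested) and fell short of it for 247 (1.87%). The counts called in each list below stand beside these shares. Over probe sets, 943 of 24822 were called (3.80%), 555 higher (2.24%) and 388 lower (1.56%). Of the 13178 genes, 7238 had a negative and 5940 a positive difference. Among all genes tested the median difference was -0.065 log2. It was 0.090 in the values as deposited, without quantile normalization, which gave 473 genes higher and 159 lower, so the share of higher calls went from 58.8% to 74.8% with this choice. The genes next to the threshold were 1700066M21Rik, called at -1.10 log2 with an adjusted p of 0.0499, and Stat3, not called at -1.15 log2 with 0.0501.

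The counts moved with the arrays left out, most of them downwards. Leaving out d6 female array 1 gave 147 higher and 69 lower genes, and leaving out array 2 gave 199 and 98. Without d3ag6 array 1 the counts were 220 and 97, and without array 2 they were 129 and 68. Without E12.5 array 1 they were 121 and 52, and without array 2 they were 126 and 47. Without E9.5 array 1 the balance turned, with 205 higher and 249 lower, whereas without E9.5 array 2 there were 359 and 192. The filter itself admits some genes through their high group: 32 of the 352 higher genes passed it on the E9.5 arrays alone and 7 on the d3ag6 arrays alone, as did 1 of the 247 lower genes on the d6 arrays and 3 on the E12.5 arrays. Such a gene had to differ in that direction and is no independent support for its list. With values below the array median set to it, 41 of the higher and 7 of the lower genes were no longer called. The call was kept with each of the 8 arrays left out for 87 of the 352 higher genes and 35 of the 247 lower genes. With the male start, 351 of the 352 higher genes kept their sign and 263 were called (background 3.33%), and 241 of the 246 lower genes that were tested kept their sign and 153 were called (background 2.17%). This setting reuses the d3ag6, E9.5 and E12.5 arrays that gave the calls, and so the whole embryo step. It is therefore no independent test of these genes.

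**Figure D1:**
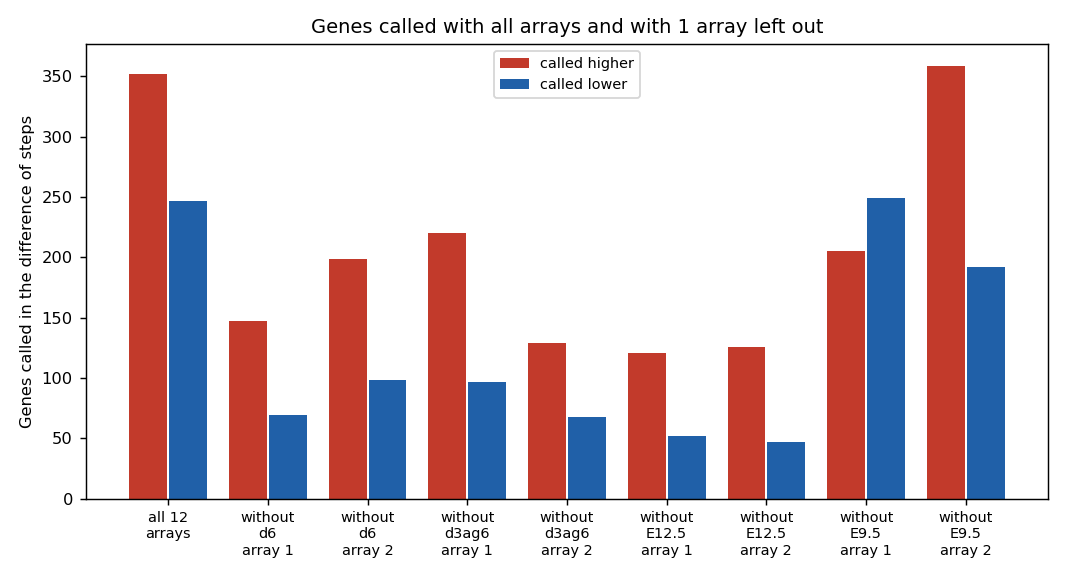
Number of genes (y axis) called higher (red) and lower (blue) in the difference of steps, with all 12 arrays in the fit and with 1 of the 8 arrays of the comparison left out (x axis). Each bar pair without a d6, d3ag6 or E12.5 array is below the 352 and 247 of the full fit, and the pair without E9.5 array 1 has 205 higher and 249 lower genes.

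Most called genes had a called step in the embryo and none in culture. The embryo step was also called more often over all genes tested, for 21.7% against 4.91% for the culture step. Of the 352 higher genes, 250 (71.0%) were called in the embryo step alone, with a median embryo step of -1.94 and a median culture step of 0.35 log2, and 55 (15.6%) in the culture step alone. Of the 247 lower genes, 173 (70.0%) were called in the embryo step alone, with medians of 1.49 in the embryo and -0.19 in culture, and 20 in the culture step alone. Single-array steps, the 4 pairings of an end array with a start array, did not overlap between culture and embryo for 5287 of all 13178 genes (40.1%). Another 25 higher and 10 lower genes were called in both steps with opposite signs, and 14 higher and 32 lower genes in both with the same sign and a different size.

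The difference of steps is also the gap between culture and embryo at the end (d3ag6 minus E12.5) minus that at the start (d6 minus E9.5). Among the 352 higher genes the start gap was called and the end gap was not for 162 (46.0%), the end gap alone was called for 130 (36.9%), both for 36 and neither for 24. Among the 247 lower genes the start gap alone was called for 144 (58.3%), the end gap alone for 55 (22.3%), both for 31 and neither for 17. The median gaps were -1.04 at the start and 1.0 at the end for the higher genes, and 1.14 and -0.53 for the lower genes. Over all 13178 genes, 12.0% were called in the start gap and 7.46% in the end gap.

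**Figure D2:**
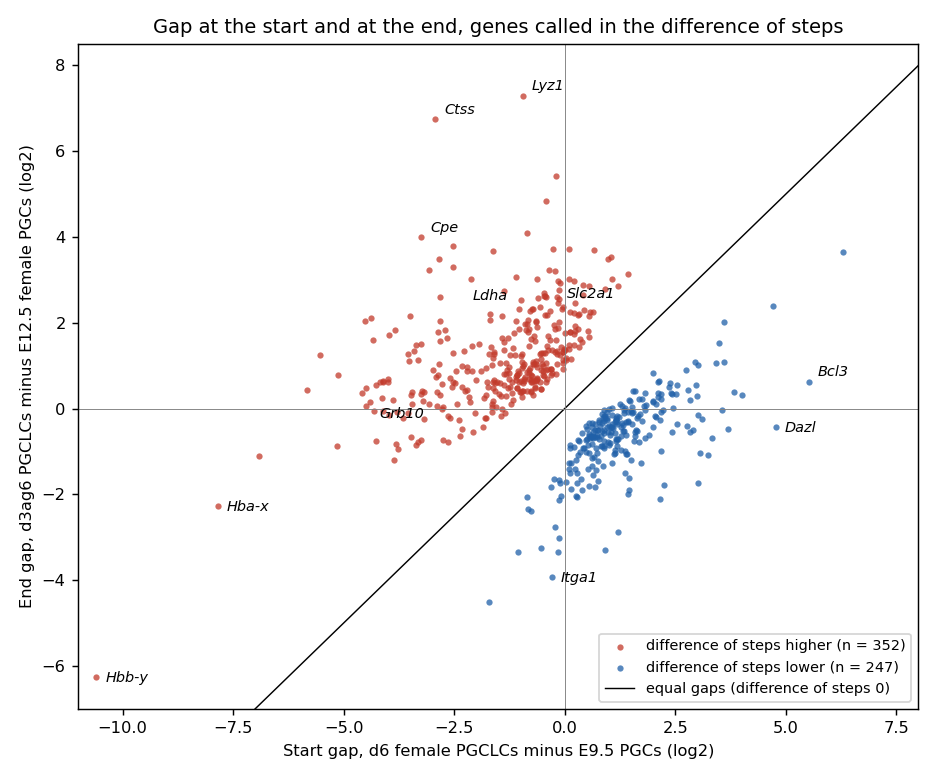
Start gap (x axis, d6 female PGCLCs minus E9.5 PGCs, log2) against end gap (y axis, d3ag6 PGCLCs minus E12.5 female PGCs, log2) for the 352 genes called higher (red) and the 247 called lower (blue), 1 point a gene; on the black line both gaps are equal. Dazl and Bcl3 lie far right near an end gap of 0, Slc2a1 high near a start gap of 0 with Ldha to its left, and Hba-x far left.

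Where both steps were called they mostly had the same sign. The culture step was called for 647 genes (4.91%) and the embryo step for 2863 (21.7%), and 392 genes were called in both, 60.6% of the former and 13.7% of the latter. Of these 392, 357 (91.1%, and 2.71% of all genes tested) had the same sign, 240 rising and 117 falling, and 35 had opposite signs. Over all genes tested, called or not, the steps had the same sign for 63.1%. Across all genes tested the steps had a Pearson r of 0.378 and a Spearman rho of 0.379, as a description over genes, which are not independent replicates.

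A missed p-value does not show that steps are alike, so a gene was counted as agreeing when both steps were called with the same sign and the 95% interval of its difference of steps lay within 1 log2 of 0 on either side. This held for 130 genes (0.986% of those tested), of which 86 rose (0.653%) and 44 fell (0.334%) in both. Of the 357 genes called in both steps with the same sign, 181 had an interval too wide to be placed and 46 were called as different. The interval lay within that margin for 4377 genes (33.2%) whatever their steps, and the interval extended a median of 0.77 log2 to either side. The count was the value most dependent on the number of arrays. Without d6 array 1 or 2 there were 7 or 9 agreeing genes that rose and 2 that fell, and without d3ag6 array 1 or 2 there were 9 or 2 that rose and 6 or 5 that fell. Without E12.5 array 1 or 2 they were 20 or 14 and 12 or 15, and without E9.5 array 1 or 2 they were 66 or 58 and 35 or 37. One gene, Mpped1, met the rule with each of the 8 arrays left out. With the male start, 82 of the 130 agreed.

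**Figure D3:**
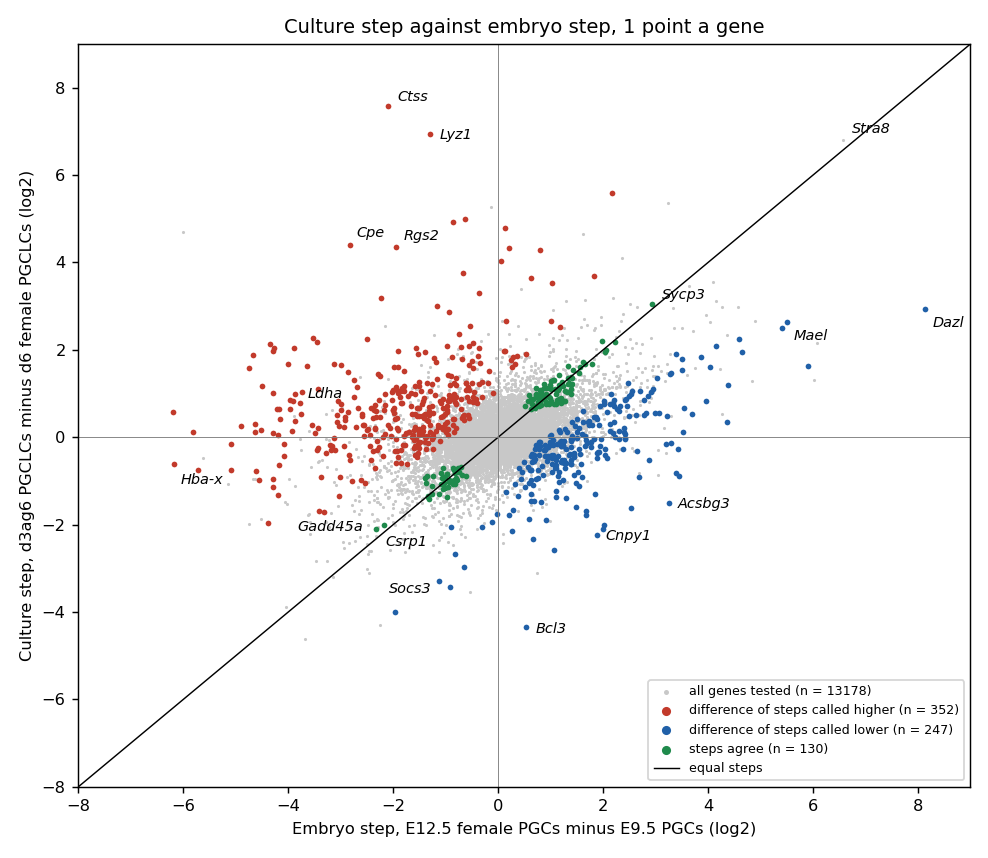
Embryo step (x axis, log2) against culture step (y axis, log2) for the 13178 genes tested (grey), with genes called higher (red, 352) or lower (blue, 247) in the difference of steps and genes whose steps agree (green, 130); the black line marks equal steps. Stra8, Sycp3 and Csrp1 lie near the line, Dazl and Mael below it, and Cpe, Rgs2, Lyz1 and Ctss above it.

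Meiotic genes were among those that agreed and among those that did not. The proximal promoters of 4 germ cell genes are shown because E2F sites (GGCGGGA) and E-boxes (CACGTG) are known in promoters of this class of genes: Sycp3 and Syce1, whose steps agreed, and Mael and Dazl, whose culture step was smaller. Each is the 250 bases before the RefSeq start in GRCm38.p6, 5′ to 3′ on the gene's strand. GGCGGGA or CACGTG on either strand is in capitals, and the stretches in capitals do not overlap one another. Sycp3 lies at chr10:88459337-88459586 on the plus strand, Syce1 at chr7:140787855-140788104 on the minus strand, Mael at chr1:166238745-166238994 on the minus strand and Dazl at chr17:50293621-50293870 on the minus strand.
Sycp3: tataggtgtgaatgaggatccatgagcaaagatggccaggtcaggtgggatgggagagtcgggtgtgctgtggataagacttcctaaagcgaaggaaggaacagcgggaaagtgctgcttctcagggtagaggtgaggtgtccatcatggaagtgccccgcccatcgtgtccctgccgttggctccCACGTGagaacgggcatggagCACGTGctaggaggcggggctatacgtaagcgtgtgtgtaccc
Syce1: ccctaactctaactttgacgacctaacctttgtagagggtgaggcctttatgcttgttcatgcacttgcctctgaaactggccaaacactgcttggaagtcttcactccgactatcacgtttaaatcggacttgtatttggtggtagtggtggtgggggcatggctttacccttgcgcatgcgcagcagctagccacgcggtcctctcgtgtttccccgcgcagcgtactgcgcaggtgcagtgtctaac
Mael: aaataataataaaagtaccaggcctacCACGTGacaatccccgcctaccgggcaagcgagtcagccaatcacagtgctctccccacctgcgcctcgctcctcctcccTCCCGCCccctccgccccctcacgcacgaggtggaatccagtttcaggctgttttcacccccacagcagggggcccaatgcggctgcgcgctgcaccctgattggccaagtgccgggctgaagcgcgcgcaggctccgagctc
Dazl: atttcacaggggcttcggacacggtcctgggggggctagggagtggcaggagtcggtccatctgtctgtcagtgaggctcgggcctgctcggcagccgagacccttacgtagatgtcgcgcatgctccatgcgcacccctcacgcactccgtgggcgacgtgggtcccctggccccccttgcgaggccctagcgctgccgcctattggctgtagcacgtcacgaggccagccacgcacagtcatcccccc
The Sycp3 window holds 2 CACGTG and 12 CG, the Mael window 1 GGCGGGA, 1 CACGTG and 18 CG, and the Syce1 and Dazl windows hold neither motif, with 13 and 20 CG. GGCGGGA was in 17.6% and CACGTG in 8.29% of the 10653 such windows of the genes tested. Among genes that agreed and rose the shares were 20.6% and 10.3% (14 and 7 of 68 with a sequence), and among those that agreed and fell 12.8% and 17.9% (5 and 7 of 39). Among genes called lower the shares were 19.2% and 9.60%, and among those called higher 12.2% and 7.17%. The median CG count was 15 over all windows, 17 and 15 for agreeing genes that rose and fell, and 13 and 15 for genes called higher and lower. A match or its absence is a description of these letters alone, and other forms of either site were not counted.

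Stra8, the retinoic acid target that starts the meiotic programme, rose in both steps. It was at 3.49 and 3.81 in d6 cells and 10.24 and 10.66 in d3ag6 cells, and at 3.17 and 3.77 in E9.5 and 10.16 and 9.92 in E12.5 PGCs. Both starts were low and both ends high, and culture and embryo were 0.18 log2 apart at the start and 0.41 at the end. The difference of steps was 0.22 ± 0.52, and its interval of -0.95 to 1.40 was too wide to count as agreement.

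Sycp3, a lateral element protein of the synaptonemal complex that holds paired chromosomes together, agreed. Its signal was 7.74 and 7.18 in d6, 10.53 and 10.50 in d3ag6, 6.89 and 6.79 in E9.5, and 9.83 and 9.72 in E12.5. Each culture array was above its embryo counterparts at the start and at the end, by 0.62 and 0.74 on average, so the steps of 3.05 and 2.94 differed by 0.12 ± 0.36 (interval -0.70 to 0.93). Syce1, a central element protein of the same complex, was at 7.29 and 7.14 in d6, 9.26 and 9.59 in d3ag6, 8.07 and 8.13 in E9.5, and 9.94 and 10.22 in E12.5. It rose by 2.21 in culture and 1.98 in the embryo, a difference of 0.23 ± 0.30 (interval -0.44 to 0.90), with culture below embryo at both ends.

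The other genes with the largest agreeing rises were Stau2, which encodes an RNA-binding protein of transport granules, Cracdl, Mpped1, Focad, Ddx58, which encodes the RNA sensor RIG-I, and Rundc3b. Their culture steps were between 1.67 and 2.17 and their embryo steps between 1.62 and 2.23, with differences between -0.09 and 0.10. Mpped1 was at 5.43 and 5.53 in d6, 7.37 and 7.50 in d3ag6, 5.07 and 5.00 in E9.5, and 7.05 and 7.10 in E12.5, and both end groups stood above both start groups. Itgb3, an integrin beta subunit, rose by 0.79 in culture and 0.80 in the embryo.

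Genes that fell alike included Csrp1, a LIM-domain protein, and Gadd45a, a p53 target induced by DNA damage. Csrp1 was at 9.39 and 9.13 in d6, 7.05 and 7.25 in d3ag6, 8.52 and 8.22 in E9.5, and 6.13 and 5.97 in E12.5. It fell by 2.11 in culture and by 2.32 in the embryo, a difference of 0.21 ± 0.25 (interval -0.37 to 0.79). Gadd45a was at 9.40 and 9.61 in d6, 7.21 and 7.76 in d3ag6, 10.27 and 10.36 in E9.5, and 8.04 and 8.24 in E12.5, a difference of 0.16 ± 0.28. In both genes the groups kept their order, with culture above embryo at both ends for Csrp1 and below it at both ends for Gadd45a. Rrp7a, Atg16l2, Cfap126, Lnx1, Tom1l1 and Tspan9 had culture steps of -1.42 to -1.12 and embryo steps of -1.34 to -1.13. Ccnd3, the cyclin D3 gene, and Ier2, an immediate early gene, also agreed, with culture steps of -0.98 and -1.06 and embryo steps of -0.81 and -1.06.

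The gonadal germ cell genes that were called had the smaller step in culture. Of 23 tested members of this list, 8 were called lower (Dazl, Mael, Tex101, Brdt, Tex19.1, Mov10l1, Stk31 and Asz1) and 0 higher, and 21 had a negative difference; at an unadjusted p under 0.05 there were 15 lower and 0 higher. Over all genes tested, 7238 of 13178 had a negative difference, and 2689 had an unadjusted p under 0.05 by limma in either direction. The median difference of the list was -1.40 log2, beside -0.065 over all genes tested, with median steps of 1.64 in culture and 2.96 in the embryo. The median gap between culture and embryo was 0.81 at the start and -0.73 at the end. The number called lower was 3 or 5 without d6 array 1 or 2, 3 or 2 without d3ag6 array 1 or 2, 2 or 1 without E12.5 array 1 or 2, and 9 or 5 without E9.5 array 1 or 2. With the male start it was 13. Ddx4, the germ cell helicase also called Vasa, was not called, with a difference of -1.0 ± 0.41 (adjusted p = 0.236; -1.92 and 0.0388 with the male start).

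Dazl, an RNA-binding protein that licenses germ cells for sexual differentiation, had the lowest difference of all named genes. It was at 10 and 9.26 in d6, 12.61 and 12.52 in d3ag6, 5.92 and 3.81 in E9.5, and 12.96 and 13.04 in E12.5. The d6 cells already lay far above both E9.5 arrays, while the ends lay close, so the start gap was 4.77 and the end gap -0.43. The steps of 2.93 and 8.14 differed by -5.20 ± 0.87 (adjusted p = 0.0170). The call was lost without d6 array 1, either d3ag6 array or either E12.5 array, at adjusted p from 0.0508 to 0.0692.

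Mael, a protein of the piRNA pathway that silences transposons, was at 7.94 and 7.72 in d6, 10.47 and 10.46 in d3ag6, 6.65 and 6.30 in E9.5, and 11.98 and 11.97 in E12.5. Its culture arrays lay between the embryo arrays at both ends, and its difference was -2.87 ± 0.47 (adjusted p = 0.0160). The call of Mael was lost without d6 array 1, d3ag6 array 2 or either E12.5 array (adjusted p from 0.0622 to 0.0659). Tex101, a germ cell surface protein, was at 7.34 and 7.38 in d6, 7.31 and 7.58 in d3ag6, 6.10 and 6.36 in E9.5, and 8.45 and 8.38 in E12.5. Its level was flat in culture, its difference was -2.10 ± 0.28 (adjusted p = 0.00737), and it kept its call with each array left out. Brdt, a testis bromodomain protein, had a difference of -2.43 ± 0.37 (adjusted p = 0.0118), lost without E12.5 array 2 at 0.0556.

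The meiosis list had 31 tested members, of which 6 were called lower (Tex15, Tex101, Mael, Smc1b, Rec8 and Sycp1) and 0 higher, and 12 and 2 at an unadjusted p under 0.05. Tex101 and Mael are also in the gonadal germ cell list. The median difference was -0.61, with median steps of 1.36 in culture and 2.31 in the embryo. The number called lower was 2 or 4 without d6 array 1 or 2, 3 or 2 without d3ag6 array 1 or 2, 2 without either E12.5 array and 4 without either E9.5 array. Tex15, required for meiotic recombination, was at 8.45 and 8.60 in d6, 8.90 and 9.12 in d3ag6, 8.18 and 8.15 in E9.5, and 10.60 and 10.70 in E12.5. Both starts were close, and the end in the embryo stood apart from the other 3 groups, with a difference of -2.0 ± 0.24 (adjusted p = 0.00547, kept with each array left out). Smc1b, the meiotic cohesin, differed by -2.91 ± 0.54 (adjusted p = 0.0239), and by -1.74 with the male start (adjusted p = 0.119). Its call was kept without d6 array 2 or E9.5 array 1 and lost without any 1 of the others. Rec8, the cohesin subunit cleaved in meiosis, differed by -1.49 ± 0.30, and by 0.06 with the male start (adjusted p = 0.953), so its difference depended on which d6 cells were the start. Among 11 tested oocyte genes 0 were called by limma at adjusted p under 0.05, and 4 lower and 1 higher at an unadjusted p under 0.05. Sohlh2, an oocyte transcription factor gene, rose by 2.99 in culture and 4.27 in the embryo without a called difference (adjusted p = 0.102).

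**Figure D4:**
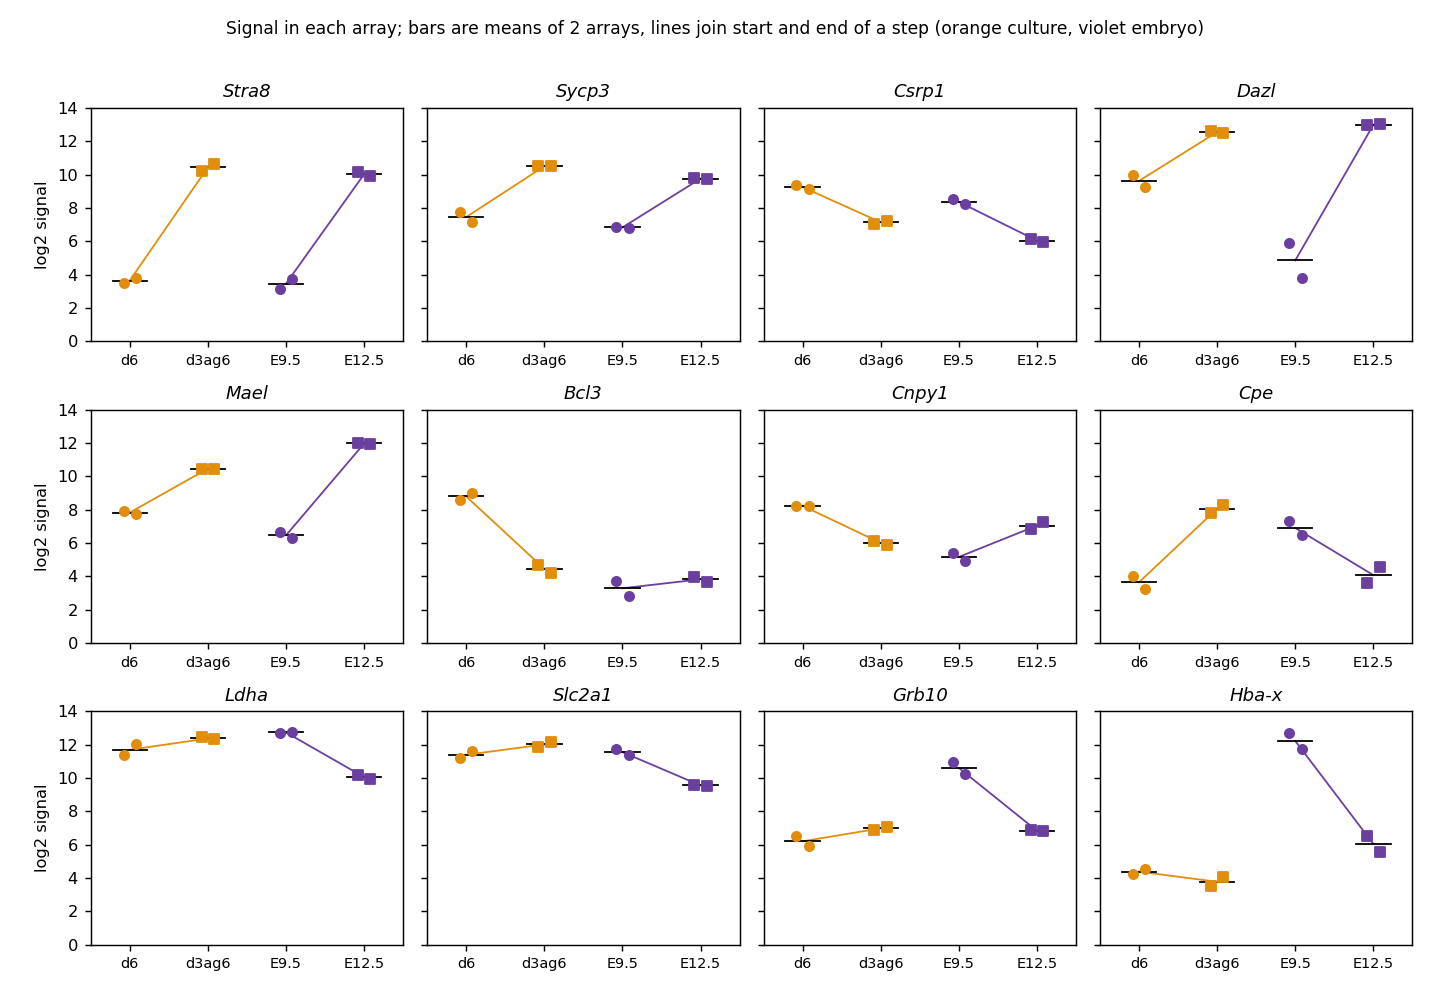
Log2 signal (y axis) of 12 genes in each array of d6 and d3ag6 PGCLCs (orange) and of E9.5 and E12.5 PGCs (violet); circles are start groups, squares end groups, bars the means of 2 arrays, and lines join the means of a step. The lines of Stra8, Sycp3 and Csrp1 run nearly parallel, Dazl starts 4.77 log2 apart and ends 0.43 apart, and Cpe and Cnpy1 move in opposite directions.

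In the list of genes that respond to LIF, the cytokine that sustains naive stem cells through STAT3, the called genes were lower. Of 16 tested, 3 were called lower (Bcl3, Socs3 and Icam1) and 0 higher, with 7 and 0 at an unadjusted p under 0.05, and the median difference was -0.855. The count called lower was 1 without either d6 array, 2 without either d3ag6 array, 2 or 1 without E12.5 array 1 or 2, and 4 or 3 without E9.5 array 1 or 2. Bcl3, a nuclear IkappaB protein, was at 8.59 and 9.02 in d6, 4.68 and 4.23 in d3ag6, 3.75 and 2.83 in E9.5, and 3.99 and 3.66 in E12.5. The d6 arrays stood far above the other 6, and the difference was -4.89 ± 0.48 (adjusted p = 0.00328). Bcl3 passed the filter on dim signal on the d6 arrays alone, which fixes its direction, and it was not tested without either of them. Socs3, the feedback inhibitor of this pathway, was at 8.55 and 8.98 in d6, 5.62 and 5.05 in d3ag6, 5.37 and 4.97 in E9.5, and 4.18 and 4.33 in E12.5, with a difference of -2.52 ± 0.38 (adjusted p = 0.0115, and 0.0533 without E12.5 array 2). Again the d6 arrays were the high ones.

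Among 26 tested pluripotency genes, 2 were called lower (Dppa2 and Dppa4, which bind chromatin together) and 0 higher, with 3 and 1 at an unadjusted p under 0.05. Dppa2 was at 10.38 and 10.15 in d6, 10.07 and 9.81 in d3ag6, 8.67 and 8.69 in E9.5, and 10.63 and 10.56 in E12.5. The E9.5 arrays were the low ones, and the difference was -2.24 ± 0.35 (adjusted p = 0.0132). Dppa4 differed by -1.38 ± 0.24 (adjusted p = 0.0204). The list had 0 lower genes without d6 array 1, d3ag6 array 2 or either E12.5 array, 1 without d6 array 2 or d3ag6 array 1, and 3 or 2 without E9.5 array 1 or 2. Of 18 PGC specification genes, Ifitm3, a surface protein of early PGCs, was called higher at 0.96 ± 0.22 (adjusted p = 0.0480), a call lost with any 1 of the 8 arrays left out (0.0860 to 0.177).

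Genes of the BMP, WNT and retinoic acid responses were called in both directions, 3 higher and 3 lower of 21 tested. Id1 and Id3, BMP targets that inhibit differentiation factors, and Smad7, an inhibitor of the pathway, were lower, and Nr2f1, Nr2f2 and Dhrs3, which respond to retinoic acid, were higher. Nr2f1 and Nr2f2 passed the filter on the E9.5 arrays alone, which fixes their direction. With dim values set to the median their differences went from 6.26 and 5.69 to 2.57 (adjusted p = 0.0653) and 2.59 (0.108). Id3 was at 11.59 and 11.66 in d6, 10.56 and 10.52 in d3ag6, 11.47 and 11.49 in E9.5, and 11.78 and 11.84 in E12.5. The d3ag6 arrays were the low ones, and the difference was -1.41 ± 0.19 (adjusted p = 0.00859, kept with each array left out). Id1 was at 8.78 and 9.04 in d6, 6.61 and 7.43 in d3ag6, 10.86 and 10.40 in E9.5, and 11.41 and 11.67 in E12.5, with a difference of -2.80 ± 0.41 (adjusted p = 0.0106, and 0.0506 without E12.5 array 2). Culture lay below embryo at both ends, and further below at the end. Without E9.5 array 1 the list had 1 higher and 3 lower genes, and without d3ag6 array 2 or E12.5 array 2 it had 1 higher and 2 lower. Without any 1 of the other arrays it had 2 or 3 of each.

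The genes that moved in opposite directions in culture and embryo numbered 35. The larger of those that rose in culture and fell in the embryo were Cpe, a carboxypeptidase that processes peptide hormones, and Rgs2, a brake on G protein signalling. Cpe was at 4.04 and 3.26 in d6, 7.82 and 8.31 in d3ag6, 7.32 and 6.49 in E9.5, and 3.60 and 4.56 in E12.5. The d3ag6 and E9.5 arrays were high and the d6 and E12.5 arrays low, with no overlap, and the steps of 4.41 and -2.83 differed by 7.24 ± 0.83 (adjusted p = 0.00502). Rgs2 was at 3.44 and 3.58 in d6, 7.53 and 8.21 in d3ag6, 7.12 and 6.07 in E9.5, and 4.63 and 4.68 in E12.5, a difference of 6.30 ± 0.65 (adjusted p = 0.00341). Its groups split in the same way as those of Cpe, and both genes kept their calls with each array left out.

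In the other direction, Acsbg3, Crxos, Cnpy1 and Sct fell in culture and rose in the embryo. Cnpy1, a canopy family gene linked to FGF signalling, was at 8.23 and 8.24 in d6, 6.12 and 5.91 in d3ag6, 5.42 and 4.91 in E9.5, and 6.84 and 7.26 in E12.5. Culture started above and ended below the embryo, with steps of -2.23 and 1.88 and a difference of -4.11 ± 0.34 (adjusted p = 0.00228). Acsbg3, an acyl-CoA synthetase gene, was at 8.89 and 7.95 in d6, 6.87 and 6.97 in d3ag6, 5.64 and 5.16 in E9.5, and 8.54 and 8.78 in E12.5, a difference of -4.76 ± 0.46 (adjusted p = 0.00305). Crxos, a homeobox gene, differed by -4.16 ± 0.43 (adjusted p = 0.00341), and these 3 genes kept their calls with each array left out. Sct, the hormone secretin, differed by -4.08 ± 0.65 (adjusted p = 0.0142), a call lost without d6 array 1, d3ag6 array 2 or either E12.5 array (0.0564 to 0.0615).

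The genes of hypoxia and glycolysis that were called had the higher step in culture. Of 31 tested, 8 were called higher (Tpi1, Slc2a1, Ldha, Pfkl, Slc2a3, Ankrd37, Slc16a3 and P4ha1) and 0 lower, with 13 and 1 at an unadjusted p under 0.05 and a median difference of 0.68. The median gap between culture and embryo was 0.25 at the start and 1.20 at the end. The number called higher was 5 or 7 without d6 array 1 or 2, 4 without either d3ag6 array, 4 without either E12.5 array, and 5 or 7 without E9.5 array 1 or 2, and 9 with the male start. Ldha, which turns pyruvate into lactate, was at 11.37 and 12.04 in d6, 12.44 and 12.32 in d3ag6, 12.71 and 12.76 in E9.5, and 10.16 and 9.96 in E12.5. The E12.5 arrays were the low ones, and the steps of 0.68 and -2.67 differed by 3.35 ± 0.41 (adjusted p = 0.00591).

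Slc2a1, the glucose transporter GLUT1, was at 11.18 and 11.63 in d6, 11.89 and 12.15 in d3ag6, 11.74 and 11.39 in E9.5, and 9.58 and 9.53 in E12.5, a difference of 2.62 ± 0.31 (adjusted p = 0.00523). Tpi1, a glycolytic enzyme, was at 11.34 and 11.95 in d6, 12.12 and 12.42 in d3ag6, 12.04 and 11.94 in E9.5, and 10.09 and 9.90 in E12.5, a difference of 2.62 ± 0.30 (adjusted p = 0.00503). For both genes the E12.5 arrays stood below the other 6. Ldha, Slc2a1 and Tpi1 kept their calls with each array left out, and with the male start their differences were 5.74, 3.53 and 3.58. Male d6 cells were at 9.56 and 9.08 for Ldha, below the E12.5 arrays. They were at 10.60 and 10.39 for Slc2a1 and at 10.69 and 10.69 for Tpi1, below the female d6 arrays. The larger differences with the male start thus came with a lower start. Slc16a3, a lactate exporter, differed by 5.28 ± 1.01 (adjusted p = 0.0266). Of 29 tested genes of oxidative phosphorylation, 0 were called by limma at adjusted p under 0.05 and 1 at an unadjusted p under 0.05, and the median difference was -0.16.

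Of 24 tested mesodermal and Hox genes, 5 were called higher (Hoxb1, Hoxd9, Hoxc8, Hoxa9 and Isl1) and 0 lower, with 8 and 3 at an unadjusted p under 0.05. Hoxb1, Hoxc8, Hoxa9 and Isl1 passed the filter on the E9.5 arrays alone, which fixes their direction, so the count says nothing more of the list. Hoxd9, a posterior patterning gene, was at 4.49 and 4.58 in d6, 5.05 and 5.74 in d3ag6, 7.19 and 6.92 in E9.5, and 4.77 and 4.78 in E12.5. The E9.5 arrays were the high ones, and the difference was 3.14 ± 0.39 (adjusted p = 0.00591, kept with each array left out). The number called higher was 2 or 3 without d6 array 1 or 2, 2 without either d3ag6 array, 3 or 2 without E12.5 array 1 or 2, and 1 or 3 without E9.5 array 1 or 2. Isl1, a heart and limb field factor, lost its call without any 1 of the d6, d3ag6 and E12.5 arrays (0.114 to 0.153) and was not tested without either E9.5 array. With values below the array median set to it, the difference of Hoxc8 was 1.59 (adjusted p = 0.291) and that of Isl1 1.86 (0.400).

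Of 13 primed epiblast genes, Fgf5, Sfrp2 and Sox3 were called higher and 0 lower, with 6 and 0 at an unadjusted p under 0.05 and a median difference of 0.73. Fgf5 passed the filter on the E9.5 arrays alone, which fixes its direction. Sfrp2, a secreted WNT modulator, was at 4.46 and 4.70 in d6, 6.71 and 6.77 in d3ag6, 8.81 and 8.05 in E9.5, and 7.92 and 7.98 in E12.5. It rose in culture by 2.16 and its embryo step was -0.48, a difference of 2.64 ± 0.33 (adjusted p = 0.00591, kept with each array left out). Fgf5, a growth factor of the epiblast, rose by 1.13 in culture and fell by 1.83 in the embryo, a difference of 2.96 ± 0.34 (adjusted p = 0.00502), and by the mean of all its probe sets 0.97 (0.196). The list had 1 higher gene without E9.5 array 1 and 2 without any 1 of the other arrays.

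Among 24 imprinted genes, Grb10, Sgce and Gnas were called higher and Slc22a18 and Plagl1 lower. Gnas had 3 tested probe sets, of which 1 was called higher and was the only 1 with a positive difference. With the male start Gnas was at 1.17 (adjusted p = 0.113 by limma). Grb10, an adaptor that restrains growth factor signalling, was at 6.51 and 5.92 in d6, 6.88 and 7.09 in d3ag6, 10.98 and 10.24 in E9.5, and 6.87 and 6.81 in E12.5. The E9.5 arrays stood above the other 6, with a start gap of -4.40, and the difference was 4.55 ± 0.44 (adjusted p = 0.00328, kept with each array left out), although 1 of its 3 tested probe sets was called and their mean gave 1.16 (adjusted p = 0.0677). With 1 array left out 1 to 4 of the list were called higher and 0 to 2 lower. Of 17 genes of the DNA methylation machinery, Tet2 and Gadd45b were called lower and 0 higher, with 3 and 1 at an unadjusted p under 0.05; with any 1 array other than d3ag6 array 1 and the E9.5 arrays left out, 0 were called lower. Tet2, which encodes an enzyme that oxidises methylated cytosine, differed by -1.19 ± 0.21 (adjusted p = 0.0201), by -0.02 with the male start (0.983) and by -0.03 as the mean of its probe sets (0.987).

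Markers of somatic cells moved with several of these groups. Of 8 tested erythroid genes 4 were called higher (Hba-x, Hbb-bh1, Alas2 and Hbb-y) and 0 lower, also at an unadjusted p under 0.05, with a median difference of 2.57. Alas2 passed the filter on the E9.5 arrays alone, and its difference went from 3.85 to 2.06 (adjusted p = 0.119) with dim values set to the median. Hba-x, an embryonic alpha-type globin, was at 4.22 and 4.57 in d6, 3.51 and 4.04 in d3ag6, 12.73 and 11.73 in E9.5, and 6.53 and 5.57 in E12.5, a difference of 5.57 ± 0.56 (adjusted p = 0.00341, kept with each array left out). The E9.5 arrays were high, the E12.5 arrays intermediate and all culture arrays dim. The summed erythroid signal was 14.26 and 13.27 log2 in E9.5, 9.65 and 8.76 in E12.5, and 8.01 to 8.30 in the culture arrays, and 8 of the 11 measured markers were above the array median in E9.5, 5 in E12.5 and 4 in each culture group. The number called higher was 2 without E12.5 array 1 or E9.5 array 1, 3 without E9.5 array 2 and 1 without any 1 of the others. The part of these cells' RNA in the differences of other genes that were high in E9.5, such as the Hox genes and Grb10, was not tested.

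Of 18 tested mesenchyme markers 4 were called higher (Col3a1, Postn, Col5a2 and Lum) and 0 lower, with 12 and 1 at an unadjusted p under 0.05 and a median difference of 1.72. Col3a1, a fibrillar collagen, was at 7.28 and 7.06 in d6, 8.22 and 9.30 in d3ag6, 10.36 and 9.04 in E9.5, and 5.10 and 4.81 in E12.5, a difference of 6.33 ± 0.66 (adjusted p = 0.00357). Postn, a matrix protein, differed by 4.76 ± 0.69 (adjusted p = 0.0104), and both kept their calls with each array left out. Lum, a matrix proteoglycan gene, went from 4.75 to 1.14 with dim values set to the median (adjusted p = 0.124). The summed mesenchyme signal was 13.83 and 13.48 in E9.5, 12.59 and 12.65 in d3ag6, 13.49 and 12.96 in d6, and 12.55 and 12.40 in E12.5. The number called was 2 or 4 without d6 array 1 or 2, 3 or 2 without d3ag6 array 1 or 2, 2 or 3 without E12.5 array 1 or 2, and 3 or 6 without E9.5 array 1 or 2. Of 13 neural markers Sox1 and Neurog2 were called higher, with summed signals of 11.21 and 9.80 in E9.5 against 9.81 to 10.44 in the other arrays. Both passed the filter on the E9.5 arrays alone, which fixes their direction, and neither was tested without either of these. The number called was 0 without E12.5 array 1, 2 without d3ag6 array 1 and 1 without either d6 array, d3ag6 array 2 or E12.5 array 2. With dim values set to the median the difference of Sox1, an early neural factor, was 0.74 (adjusted p = 0.287) and that of Neurog2 1.39 (0.227).

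Macrophage markers went with the d3ag6 end. Of 15 tested, Ctss, Lyz1 and Lyz2 were called higher and 0 lower, with 6 and 0 at an unadjusted p under 0.05 and a median difference of 0.89. Lyz1 had 2 tested probe sets, both with a positive difference, of which 1 was called. Lyz2, a lysozyme of myeloid cells, was at 3.96 and 4.32 in d6, 7.91 and 8.45 in d3ag6, 4.79 and 4.0 in E9.5, and 4.55 and 4.36 in E12.5. The d3ag6 arrays were the high ones, and the difference was 3.98 ± 0.46 (adjusted p = 0.00503). Lyz2 passed the filter on the d3ag6 arrays alone, which fixes its direction, and it was not tested without either of them. The summed signal was 11.49 and 11.85 in d3ag6 and 9.39 to 10.02 in the other 6 arrays, with 14 of 19 markers above the array median in d3ag6 and 7 or 8 in the other groups. Ptprc, the pan-leukocyte CD45 gene, did not pass the filter, and Csf1r and Aif1, which mark macrophages, had differences of 0.42 and 0.64 that were not called. Between 0 and 4 of the list were called with 1 array left out, 0 without d3ag6 array 2 and 1 without d3ag6 array 1 or E12.5 array 2. Whether such cells contributed to other genes high in d3ag6 was not tested.

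Gonadal somatic cell markers had a median difference of 1.68 over 14 tested, with Nr2f2, admitted by the E9.5 arrays alone, and Inha called higher and 0 lower, and 9 and 1 at an unadjusted p under 0.05. Inha, the inhibin alpha subunit of granulosa and Sertoli cells, was at 5.14 and 5.22 in d6, 6.84 and 7.06 in d3ag6, 5.48 and 5.22 in E9.5, and 5.39 and 5.82 in E12.5, a difference of 1.53 ± 0.27 (adjusted p = 0.0194), lost without either d6 array, d3ag6 array 2 or E12.5 array 1 (0.0583 to 0.0839). Amhr2, the receptor for anti-Mullerian hormone, was at 4.54 and 4.44 in d6, 7.53 and 7.68 in d3ag6, 4.49 and 4.55 in E9.5, and 6.06 and 5.58 in E12.5. Its steps were 3.12 in culture and 1.30 in the embryo, a difference that was not called, at 1.82 ± 0.44 (adjusted p = 0.0613). Wt1, Gata4 and Foxl2, which define gonadal somatic cells, had differences of 2.15, 0.10 and -0.02 and were not called, and Nr5a1 did not pass the filter. The summed signal was 10.60 and 10.81 in d3ag6, 9.81 and 9.62 in d6, 11.02 and 10.05 in E9.5, and 10.17 and 10.04 in E12.5. Between 0 and 2 of the list were called with 1 array left out, 0 without d3ag6 array 2 and 1 without d6 array 2, either E12.5 array or E9.5 array 1.

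Other marker lists had few calls. Of 16 endothelial markers, Egfl7 was called higher, with summed signals of 10.97 to 12.02 in the culture arrays and 10.20 to 11.47 in the embryo arrays. Of 21 gut, visceral endoderm and epithelial markers, Amn, a cubilin partner of absorptive epithelia, was called lower and 0 higher. At an unadjusted p under 0.05 by limma this list had 6 higher and 2 lower, so it did not lean the way of Amn. Egfl7 kept its call without d3ag6 array 1 or E9.5 array 2, and Amn without E9.5 array 1. Afp, the fetal serum protein of visceral endoderm and liver, was at 2.07 and 2.67 in d6, 3.27 and 10.87 in d3ag6, 8.25 and 8.02 in E9.5, and 2.53 and 1.73 in E12.5. Its 2 d3ag6 arrays lay far apart, and its difference of 10.70 ± 2.68 was not called (adjusted p = 0.0669).

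Proliferation genes gave 0 calls. Of 29 S phase and mitosis genes, 0 were called by limma at adjusted p under 0.05 and 2 higher and 1 lower at an unadjusted p under 0.05, with a median difference of -0.03, and median steps of -0.01 in culture and -0.03 in the embryo. Of 16 cell cycle inhibitors and D cyclins, Ccng1 was called lower. Ccng1, the p53 target cyclin G1, was at 9.90 and 9.89 in d6, 9.68 and 9.56 in d3ag6, 8.21 and 8.18 in E9.5, and 9.74 and 9.74 in E12.5. The E9.5 arrays were the low ones, and the difference was -1.81 ± 0.23 (adjusted p = 0.00683, kept with each array left out), though the mean of its probe sets gave -1.31 (0.0587). It was also the gene called among 16 p53 targets, of which 14 had a negative difference, beside 7238 of 13178 over all genes tested. The median difference of these targets was -0.79, with a median start gap of 1.47 and end gap of 0.54. Of these targets 7 were lower and 0 higher at an unadjusted p under 0.05, and 4 were called lower without E9.5 array 1.

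Of 26 immediate early and stress genes, 2 were called higher and 3 lower. Ier3, a stress-induced survival gene, was at 8.81 and 9.64 in d6, 9.09 and 9.33 in d3ag6, 9.78 and 9.63 in E9.5, and 6.31 and 6.84 in E12.5. The E12.5 arrays were the low ones, as for the glycolysis genes, and the difference was 3.11 ± 0.41 (adjusted p = 0.00766, kept with each array left out). Egr1, a growth factor response gene, differed by 1.63 ± 0.34 (adjusted p = 0.0361), a call lost with any 1 of the 8 arrays left out. With 1 array left out 1 of the list was called higher, and 1 was called lower without d6 array 2 or E9.5 array 2 and 0 without the others. Of 22 cholesterol and fatty acid genes, Scd1, a fatty acid desaturase gene, was called lower, a call kept without E9.5 array 1 and lost without any 1 of the others. Of 18 interferon and immunoproteasome genes, H2-K1 and H2-D1, which encode class I antigens, were called higher at 2.25 ± 0.43 and 2.02 ± 0.45 (adjusted p = 0.0267 and 0.0473). H2-K1 had 3 tested probe sets, of which 1 was called and 2 had a positive difference. H2-D1 had 4, of which 1 was called and 3 had a positive difference. The number called in this list was 0 without d3ag6 array 2, either E12.5 array or E9.5 array 1, 2 without d3ag6 array 1 and 1 without the others.

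Sex-linked genes are given with the male start beside them, since the sex of the E9.5 PGCs is unknown. Eif2s3y, a Y-linked translation factor, was at 3.25 and 3.22 in d6, 3.35 and 3.35 in d3ag6, 8.40 and 8.33 in E9.5, and 1.58 and 3.54 in E12.5. The E9.5 arrays were the high ones and alone admitted it and Kdm5d to the test, and the difference of 5.92 ± 0.75 (adjusted p = 0.00612) was 0.47 with the male start (0.829). Kdm5d, a Y-linked histone demethylase, differed by 6.77 ± 0.92 and by 2.64 with the male start (0.166). Zfy2, also annotated to the Y chromosome, was at 7.77 and 7.55 in d6, 7.71 and 7.32 in d3ag6, 4.42 and 4.69 in E9.5, and 7.90 and 7.61 in E12.5. The 3 female groups were the high ones, which goes against a Y-linked gene, and male d6 cells, with the array codes of E9.5, were at 5.06 and 4.56. Its difference of -3.35 ± 0.34 was -0.50 with the male start (0.518), and whether this signal followed array code or sex cannot be told apart. Of 19 widely expressed X-linked genes, Rbmx, an RNA-binding protein gene, was called higher and Msn lower. Rbmx was at 6.38 and 6.62 in d6, 6.75 and 6.71 in d3ag6, 9.56 and 9.59 in E9.5, and 6.74 and 6.53 in E12.5, a difference of 3.18 ± 0.27 (adjusted p = 0.00228) and 3.00 with the male start, and the E9.5 arrays were again the high ones. Xist, the RNA that silences an X chromosome in females, had a difference of -0.01 ± 0.41 by its brightest probe set.

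**Figure D5:**
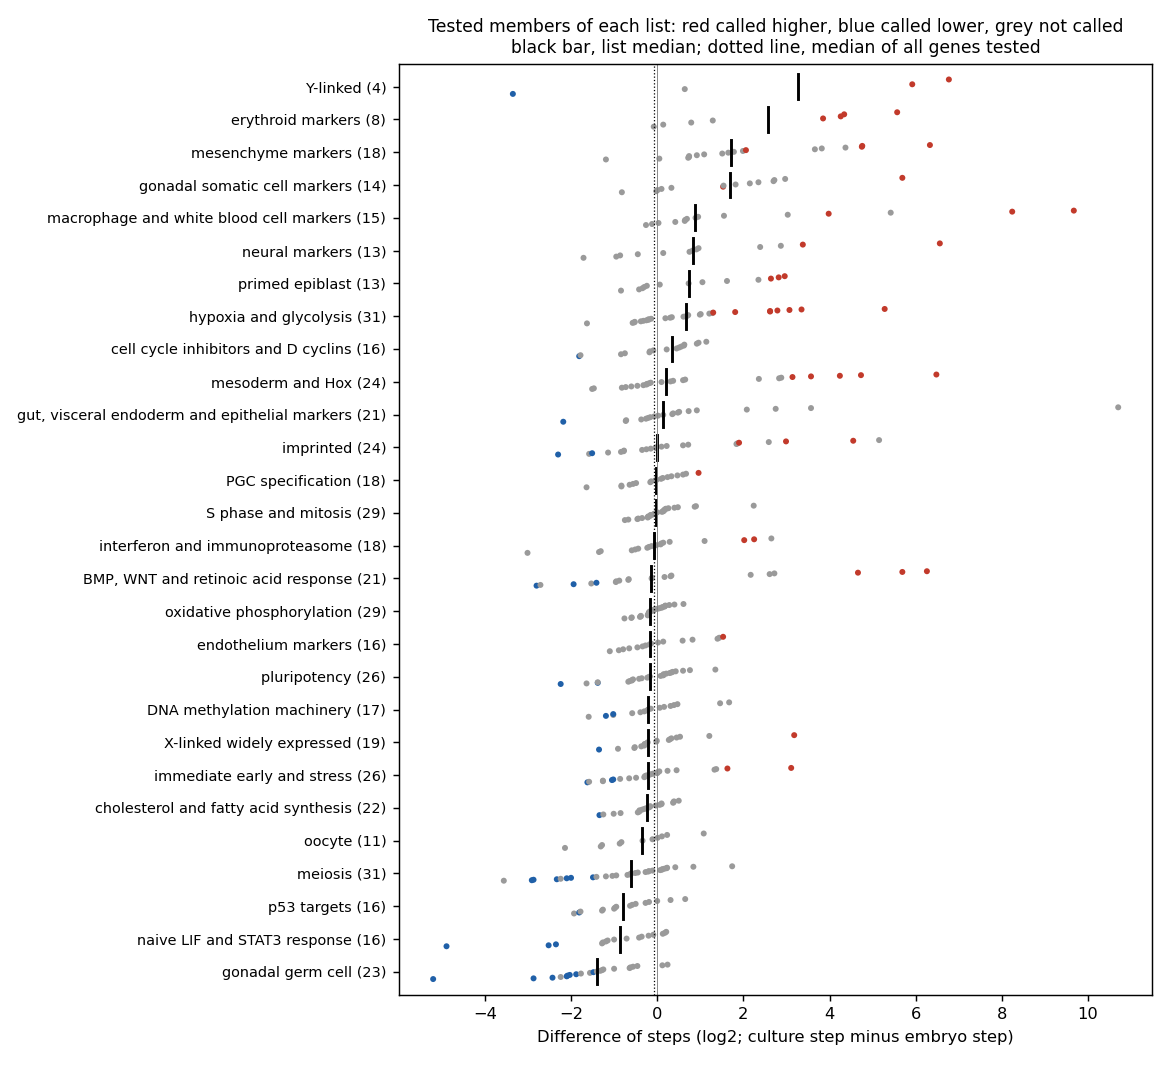
Difference of steps (x axis, log2) of the tested members of 28 gene lists (y axis, number of tested members in brackets, ordered by median): red points are called higher, blue lower and grey not called, black bars are list medians and the dotted line is the median of all genes tested, -0.065. Gonadal germ cell genes lie lowest with a median of -1.40, and erythroid and Y-linked genes highest.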

How the data were processed

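The data were 12 Affymetrix mouse expression arrays, 1 per sample, in 6 groups of 2. The authors' deposited table held 1 value per probe set and array, on a scale read as log2 from its range (array maxima of 13.76 to 13.93), and how the authors summarised and normalized these log2 values is not given in the sources used here; the log base is not stated either. Per the labels' protocols, PCR-amplified cDNA was labelled, which can widen the spread of dim genes.

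Array medians differed by 0.14, so values were quantile normalized with limma 3.58.1 (R 4.3.3). One model with 1 mean per group over all 12 arrays (6 residual degrees of freedom, eBayes) gave the interaction contrast, with two-sided tests and Benjamini-Hochberg adjustment over the 24822 probe sets above 4.81, the median of all values, on at least 2 of the 8 arrays. Called means an adjusted p under 0.05. Of 45101 probe sets 34958 had 1 gene in the platform annotation, 932 several and 9211 none. A gene is its probe set with the highest mean over the 8 arrays, and levels are not compared between genes. Python 3.11.15, pandas 2.3.3, numpy 2.4.6 and matplotlib 3.10.9 served for tables and plots. Promoter sequences came from RefSeq on GRCm38.p6.

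The genes named were the 12 largest differences in each direction among called genes whose single-array steps did not overlap, the 8 agreeing genes with the largest steps in each direction, up to 4 members of each of 28 lists by p, and Stra8, Sycp3, Dazl, Ddx4, Prdm1, Dppa3 and Xist. Further list members are named where a count is given, and Pou5f1, Dnd1, Wt1, Gata4, Foxl2, Csf1r and Aif1 as cell type markers. The lists and genes were chosen with earlier results of these data known. Replicate numbers did not pair samples: replicate differences correlated between -0.206 and 0.295 between groups, except 0.569 between E9.5 and male d6, which share array codes. Tested on simulated data with 200 of 24822 probe sets changed, the fit recovered 2% of 2-fold and 47% of 4-fold differences of steps, and 3.9% of 51 calls were wrong. The number of arrays, 2 a group, limits the precision. Alternatives were other filters, dim values set to the median, values as deposited, other fits, a male start, a replicate block, probe set means and each array left out. Tsix was not analysed here.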

Additional observations from a re-analysis of the deposited data

Results flagged for a closer look

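The interaction test of the difference of steps marked 352 genes with the higher step in culture and 247 with the higher step in the embryo. The 12 largest differences of the first kind were Ctss at 9.67, Lyz1 at 8.24, Cpe at 7.24, Kdm5d at 6.77, Sox1 at 6.56, Isl1 at 6.48, Col3a1 at 6.33, Igfbp5 at 6.32, Rgs2 at 6.30, Nr2f1 at 6.26, Heph at 5.94 and Eif2s3y at 5.92 log2. Their order rests on dim levels: with values below the array median set to it, Ctss was at 5.0, Lyz1 at 4.80, Kdm5d at 3.07, Sox1 at 0.74, Isl1 at 1.86 and Heph at 1.93, while Col3a1 stayed at 6.33. Of these genes, Cpe, Col3a1 and Rgs2 kept their call with each of the 8 arrays left out, and Igfbp5 and Isl1 kept theirs in 1 and 0 of 8. Kdm5d, Sox1, Isl1, Nr2f1, Heph and Eif2s3y were above the filter on the E9.5 arrays alone and were not tested without either of them.

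The 12 largest of the second kind were Dazl at -5.20, Bcl3 at -4.89, Acsbg3 at -4.76, Tcea3 at -4.32, Egfl6 at -4.19, Crxos at -4.16, Cnpy1 at -4.11, Sct at -4.08, Rasgrp2 at -4.02, Ptpn22 at -4.01, Trim47 at -3.69 and Itga1 at -3.64 log2. Of these, Acsbg3, Crxos and Cnpy1 stayed called whichever of the 8 arrays was left out. Bcl3 was above the filter on the d6 arrays alone and was not tested without either of them. Rasgrp2 and Trim47 kept theirs in 1 of 8 and were at -3.32 and -2.01 with the male start (adjusted p of 0.0672 and 0.191 by limma). Ctss was at 6.75 and 1.65 on the 2 E9.5 arrays, and its call was kept in 2 of 8. No group held more than 2 arrays, so single samples were not compared with their group for outlying values.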

How the results depend on the processing

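Genes called higher and lower, 352 and 247, became 106 and 39 without a filter on dim signal and 547 and 531 with array code EA0831 against EA0842 as a covariate, a setting added after the data were seen. The lower count was 159 in the values as deposited. Over probe sets, 555 and 388 became 171 and 59 without a filter and 892 and 857 with the code covariate, and the lower count 253 as deposited. With each of the 8 arrays left out, where its partner is assumed to vary like the other groups, 121 to 359 genes were higher and 47 to 249 lower (194 to 556 and 66 to 361 probe sets). Agreeing genes, 86 that rose and 44 that fell, became 11 and 3 without a filter, 140 and 67 with the filter at the 75th percentile, 248 and 114 with the male start and 220 and 98 with the code covariate, and 152 rose with dim values set to the median. With each array left out, 2 to 66 rose and 2 to 37 fell. Replicate numbers shared no more than a number, and with the replicate block 375 genes were higher and 287 lower, sharing 335 and 229 with the fit without it. Among called genes that the naming rule chose, Msn turned its sign, at 1.14 (adjusted p = 0.551 by limma) as the mean of its probe sets. Rec8, named from its list, was at 0.06 with the male start, and genes that were not called also changed sign, such as Nlrp14 from -2.14 to 0.73 with the male start. The causes were not tested. Of 142 named genes, 120 kept their side of the threshold with the male start, 14 lost and 7 gained a call.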
